A study of Mus musculus with 56 samples.

Results

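A set of 10 genes for the enzymes that make prostaglandins and leukotrienes or remove them were followed across injured tissues with and without regulatory T cells. The genes were taken by name and were Ptgs1, Ptgs2, Ptges, Hpgd, Hpgds, Alox5, Alox5ap, Alox15, Ltc4s and Lta4h. Each had a single row with the same Ensembl identifier in both count tables, so 10 of the 60601 genes listed in either table are described. The libraries are bulk 3′ RNA-seq of monocytes and macrophages sorted from infarcted heart, from a cranial bone defect, from muscle after volumetric loss and from a full-thickness skin punch. Depleted cells came from 10-week-old Foxp3(DTR/GFP) mice, also labelled FDG, in which the Foxp3 locus drives the diphtheria toxin receptor. Control cells came from wild-type C57BL/6J mice of the same age. All mice of both arms received 20 ng/g diphtheria toxin, so the arms differ in genotype together with the loss of Foxp3-expressing regulatory T cells. Heart, muscle and skin were sampled at days 4 and 7 after injury. For bone the labels give days 7 and 10. There were 3 libraries per arm at each heart and muscle day and at bone day 10, 5 per arm at bone day 7, and 4 per arm at each skin day. These 56 libraries form 16 groups.

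Prostaglandins and leukotrienes are short-lived lipid signals made from arachidonic acid. Cyclooxygenases turn the acid into prostaglandin H, which synthases such as Ptges and Hpgds convert into prostaglandins E and D, and Hpgd breaks prostaglandins down. In the other branch the 5-lipoxygenase Alox5, helped by the membrane protein Alox5ap, makes leukotriene A, which Lta4h converts to leukotriene B and Ltc4s to leukotriene C. Alox15 oxidises arachidonic and other fatty acids at another carbon. Macrophages in wounds use several of these steps, and prostaglandins and leukotrienes act on vessels, granulocytes and the clearing of inflammation.

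Levels are given as CPM, counts scaled to a common library total with edgeR's TMM factors, and are compared within a gene only. Totals per library ran from 2642452 to 9788811 counts for heart, from 2318223 to 5835064 counts for bone, from 3439649 to 6397377 counts for muscle and from 3013740 to 5392902 counts for skin. All 10 monocyte and macrophage markers (Csf1r, Cd68, Adgre1 and others) had counts in every group. Their summed level ran from 9113 CPM in a depleted bone library to 34569 CPM in a control heart library. In day 7 bone 6 of these 10 fell with depletion (Csf1r, Cd68, Adgre1, Lyz2, Mertk and Cd14) and Ly6c2 rose, with sums of 10275 to 14701 CPM in depleted against 12860 to 23957 CPM in control cells. In day 10 bone 4 fell and 2 rose, and in each other comparison at most 1 fell. Neutrophil markers summed to between 194.5 and 818 CPM in the heart libraries and to between 5193 and 32364 CPM in bone. Mast cell and basophil markers were higher in depleted bone (762.9 to 5093 CPM at day 7 and 2031 to 3890 CPM at day 10) than in control bone (101.6 to 398 and 253.8 to 699.9 CPM). They were also higher in depleted skin, at 188 to 783.6 CPM against 29.5 to 111 CPM at day 4 and 234.7 to 654.6 CPM against 65.5 to 117 CPM at day 7, with 6 of 11 tested markers called higher at each day. The ribosomal RNA gene Rn18s-rs5, which is not in the heart table, was higher in depleted cells without overlap in day 10 bone and in day 7 muscle (15340 to 43880 against 6330 to 10560 CPM), and with overlap in day 7 bone and in day 7 skin (14730 to 61860 against 7966 to 20970 CPM). It was fitted as a covariate, in muscle and skin as an alternative chosen after seeing the data, and each depletion call that this ended is named below. Ribosomal protein genes summed to 62700 to 68480 CPM in the control hearts at day 4 and to 22880 to 25770 CPM in the depleted hearts of that day, and to 21500 to 25760 CPM in both arms at day 7. The 3 control hearts of day 4 thus stood apart from the other 9 heart libraries. In such bulk libraries fewer cells of a type and less RNA per cell cannot be told apart. The part of these features in the results below was not tested unless a value is given.

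The promoters of 8 of the 10 genes were found in RefSeq's table for GRCm38.p6, while Alox5ap and Alox15 were not matched. 4 of them are shown here because Hpgd and Hpgds fell together in depleted cells, and Ptgs2 and Ptges followed each other across tissues. Each runs 5′ to 3′ on the gene's own strand and ends 1 base before the start that RefSeq gives, except that of Hpgds, which covers bases -250 to -179. The gene positions printed further on are GENCODE's. Their outermost starts differ from RefSeq's for Hpgd, Hpgds, Ptges, Ltc4s and Lta4h. The Ptges stretch lies inside the longer GENCODE gene, and the Hpgds stretch stops where the GENCODE gene begins. Capitals mark GAGGAA or its reverse complement TTCCTC, the core that ETS factors such as the macrophage factor PU.1 can bind.
Hpgd, chr8:56294302-56294551, plus strand: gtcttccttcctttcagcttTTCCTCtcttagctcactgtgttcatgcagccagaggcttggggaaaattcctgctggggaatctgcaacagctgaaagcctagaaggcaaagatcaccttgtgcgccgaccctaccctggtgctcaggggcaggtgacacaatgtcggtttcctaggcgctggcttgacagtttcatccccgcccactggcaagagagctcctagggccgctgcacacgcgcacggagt
Hpgds, chr6:65144909-65144980, minus strand: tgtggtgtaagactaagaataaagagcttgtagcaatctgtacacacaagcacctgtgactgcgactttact
Ptgs2, chr1:150099781-150100030, plus strand: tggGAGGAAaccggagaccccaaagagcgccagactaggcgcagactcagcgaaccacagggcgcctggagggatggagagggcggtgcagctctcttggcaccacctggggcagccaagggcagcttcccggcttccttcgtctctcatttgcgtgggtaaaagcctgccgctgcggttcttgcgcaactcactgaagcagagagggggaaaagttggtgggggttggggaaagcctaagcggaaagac
Ptges, chr2:30903298-30903547, minus strand: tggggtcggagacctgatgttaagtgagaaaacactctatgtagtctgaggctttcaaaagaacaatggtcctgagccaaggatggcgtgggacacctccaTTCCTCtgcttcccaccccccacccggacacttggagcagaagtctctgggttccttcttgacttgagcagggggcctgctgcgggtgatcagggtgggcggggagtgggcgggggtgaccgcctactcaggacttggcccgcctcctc
GAGGAA was found on either strand of the 250 bases before the RefSeq start in 7 of the 8 genes (all but Ltc4s). It was found in 23.1% of 27025 promoters of that length. That of Hpgds lies at bases -49 to -44, outside the stretch shown and inside the GENCODE gene. TATAAA (13.0% of all promoters), CACGTG (6.05%), TGACGT (6.56%), TGANTCA (6.87%) and GGGNNTTCC (4.88%) were found in 0 of the 8. CCAAT was found in Lta4h alone, against 34.5% of all promoters. Every search covered those 250 bases only. Bases from the RefSeq start onward were not searched, so a motif not found may still lie there. These motifs were chosen after the sequences had been seen, and a match of letters shows neither binding nor a cause.

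With depletion of regulatory T cells the gene called most often was Hpgd, lower in 6 of 8 tissue and day combinations. A call is an adjusted p under 0.05 in edgeR's quasi-likelihood test, adjusted over all genes tested. In the day 4 heart 1 of 10 genes fell and 0 rose, where 11.1% of all genes were called, a share no smaller than that of the 10. In the day 7 heart 1 fell and 0 rose, against 3.14% of all genes. Day 7 bone had 2 higher and 3 lower of 10 (23.6% of all genes), and day 10 bone had 1 higher and 2 lower (17.2%). Muscle had 0 of 9 tested genes called at day 4 (0.155% of all genes), with 2 at an unadjusted p under 0.05 and 0 in DESeq2, and 3 higher and 2 lower at day 7 (8.59%). Skin had 2 lower and 0 higher of 10 at day 4 (3.57%) and 3 lower and 0 higher at day 7 (6.21%). Over the genes tested the median log2 change ran from -0.72 in day 7 skin to 0.37 in day 7 muscle, while that of all genes lay within -0.02 and 0.00 in every one of these comparisons.

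**Figure D1:**
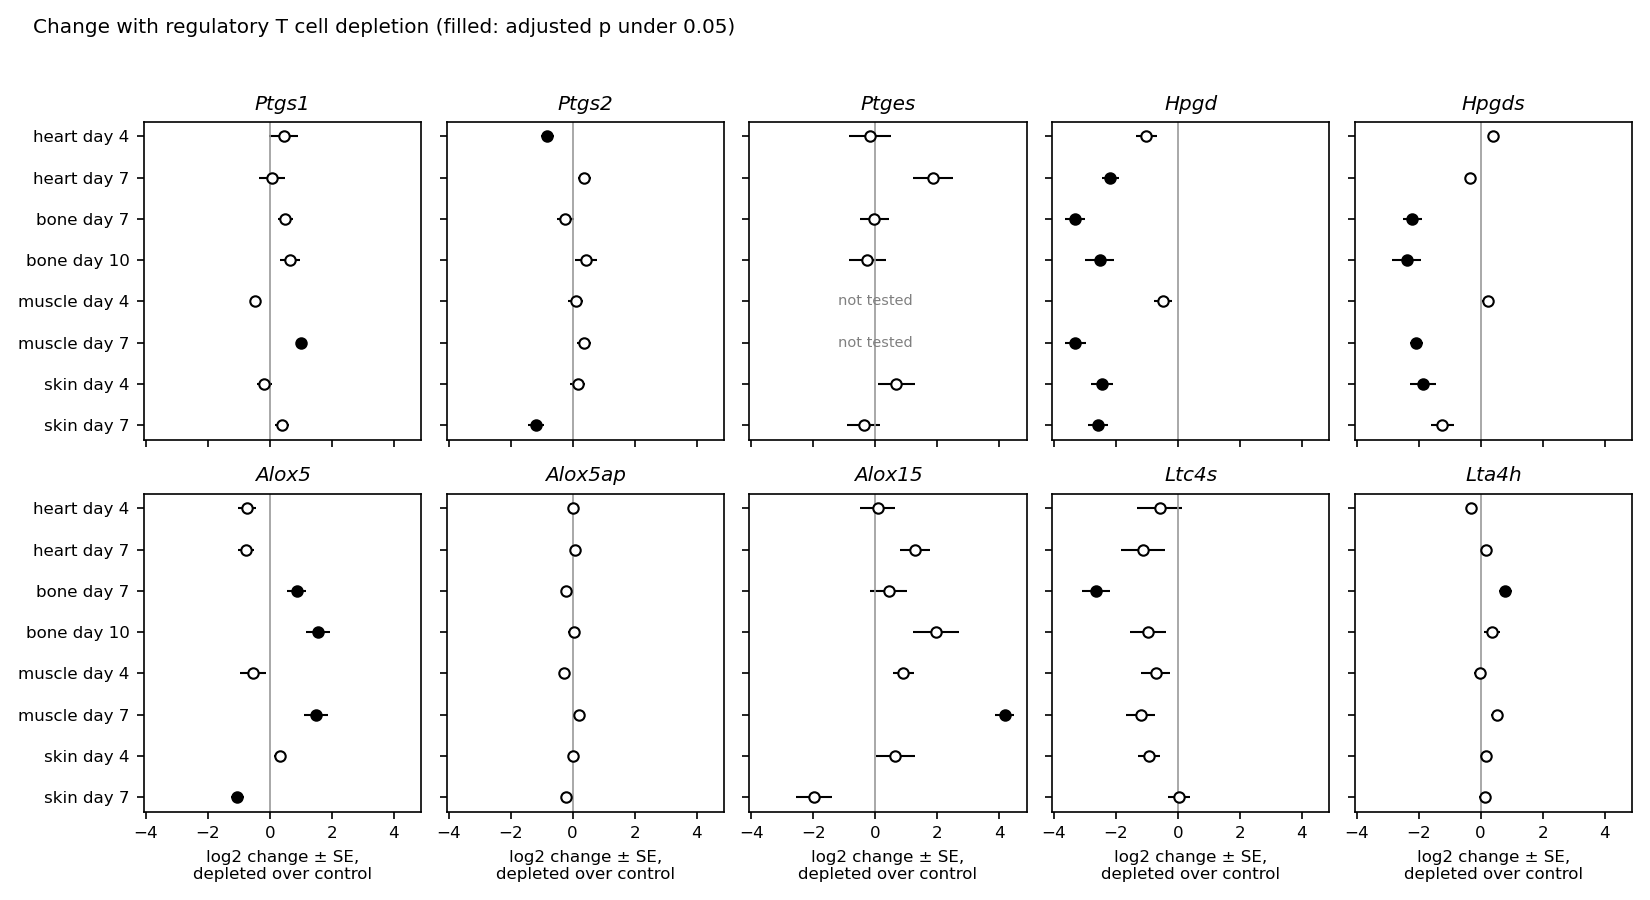
Log2 change of depleted over control cells with its standard error (x axis) for each of the 10 genes in the 8 tissue and day combinations (y axis), from edgeR; filled points have an adjusted p under 0.05. Hpgd lies left of 0 in all 8 rows and is filled in 6 of them, Alox15 spans -1.98 to 4.17, and Alox5ap stays within -0.27 and 0.21.

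Hpgd, which encodes the enzyme that inactivates prostaglandins (ENSMUSG00000031613, chromosome 8, 56294585 to 56321043, plus strand, GRCm38), fell in 6 of 8 comparisons with depletion, and its estimate was below 0 in all 8. In day 7 bone the depleted libraries held 0.627, 2.69, 1.82, 4.38 and 1.97 CPM and the controls 23.6, 22.1, 17.5, 22.3 and 34.4 CPM. Every depleted library was thus below every control, at 3 to 28 counts each against 54 to 108. The log2 change was -3.33 ± 0.32 (SE; edgeR adjusted p = 5.32e-07), from 24.0 ± 6.27 (SD, n = 5) to 2.30 ± 1.38 CPM (n = 5). Gm45540 overlaps Hpgd on the same strand, which makes its counts uncertain.

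Day 10 bone gave 2.40, 3.39 and 1.27 CPM of Hpgd in depleted against 14.3, 13.6 and 13.3 CPM in control libraries (log2 change -2.53 ± 0.45, edgeR adjusted p = 0.000995). The separation in bone was therefore present at both days, without overlap. Depleted bone also held more of the ribosomal RNA gene Rn18s-rs5, at 66980 to 94970 CPM against 17100 to 26110 CPM at day 10 and 49310 to 103600 against 14230 to 77600 CPM at day 7. With the level of Rn18s-rs5 as a covariate the Hpgd change was -2.99 ± 0.40 at day 7 (edgeR adjusted p = 9.7e-05) and -2.0 ± 0.62 at day 10 (adjusted p = 0.136), so the day 10 call was lost. Macrophage-defining markers fell in bone at both days as well, as given above, and their part was not tested.

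In day 7 muscle Hpgd stood at 4.24, 1.32 and 2.10 CPM in depleted and 22.1, 30.6 and 27.7 CPM in control samples. All 3 depleted libraries were below the lowest control, and the log2 change was -3.31 ± 0.35 (edgeR adjusted p = 1.08e-05). With the Rn18s-rs5 covariate the change was -3.46 ± 0.50 (edgeR adjusted p = 0.000988). At day 4 the depleted muscle libraries (7.12, 15.5 and 11.1 CPM) overlapped the controls (18.9, 14.0 and 14.4 CPM), with a change of -0.49 ± 0.30 that did not pass (adjusted p = 0.711). The difference between the 2 days' effects was itself -2.82 ± 0.46 on the log2 scale (edgeR adjusted p = 0.00336, in a test in which 2.41% of all genes were called). In bone the effect on Hpgd differed between the days by 0.80 ± 0.58, which did not pass (adjusted p = 0.60). The differences of the 2 tissues were not compared with each other.

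Skin showed the fall at both days. At day 4 Hpgd was at 1.53, 1.02, 1.44 and 1.94 CPM in depleted and 4.97, 6.97, 8.47 and 13.9 CPM in control samples (log2 change -2.45 ± 0.36, edgeR adjusted p = 0.00024), with 3 to 9 counts per depleted library. At day 7 the levels were 2.34, 2.67, 3.79 and 3.85 CPM against 19.4, 12.7, 21.6 and 24.6 CPM (log2 change -2.58 ± 0.32, edgeR adjusted p = 1.27e-05). Depleted and control skin did not overlap at either day.

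The heart had the highest Hpgd of its own table in day 7 controls, at 126.5, 113.5 and 73.0 CPM, against 28.1, 22.0 and 18.2 CPM in depleted libraries. No depleted library reached the lowest control (log2 change -2.18 ± 0.29, edgeR adjusted p = 0.00247). At day 4 the libraries were also apart (11.6, 9.19 and 8.57 CPM against 29.6, 17.9 and 11.7 CPM), but the change of -1.03 ± 0.34 did not pass (adjusted p = 0.0757); with DESeq2 it did (adjusted p = 0.0175). Leaving out any single library ended none of the 6 Hpgd calls. Resident macrophage markers fell beside Hpgd in part: of the tested markers 6 of 11 fell in day 7 bone, 4 of 11 in day 10 bone, 5 of 11 in day 7 muscle, 6 of 11 in day 4 skin and 4 of 10 in each heart day, but 0 of 11 fell and 2 rose (Lyve1 and Mrc1) in day 7 skin, where Hpgd fell as well.

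Hpgds (ENSMUSG00000029919, chromosome 6, 65117293 to 65144908, minus strand), the glutathione-dependent synthase of prostaglandin D in blood cells, fell in 4 of 8 comparisons, each time in a group where Hpgd fell too. Day 7 bone held 2.93, 1.79, 2.62, 2.50 and 3.66 CPM in depleted and 14.8, 12.3, 9.75, 10.7 and 13.5 CPM in control samples, with no overlap (log2 change -2.20 ± 0.31, edgeR adjusted p = 2.82e-05). Day 10 bone held 1.03, 2.71 and 1.27 against 5.21, 7.20 and 14.8 CPM, again apart (-2.39 ± 0.46, edgeR adjusted p = 0.00171), though with the Rn18s-rs5 covariate the adjusted p was 0.135. At day 7 that covariate left the bone call in place (adjusted p = 0.00591). Resident macrophage markers fell in part in the 4 groups where Hpgds fell, as counted above. They also fell in part on both heart days, where Hpgds was not called, and their part was not tested. Most like Hpgds across the 12 group means of bone, muscle and skin were Slc2a8 (Pearson r 0.986), Abhd12 (0.983) and Gas6 (0.977). Gas6, itself a resident macrophage marker, fell in the same 4 groups and in day 4 heart.

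In day 7 muscle Hpgds fell from 59.5, 74.4 and 79.1 CPM in controls to 20.7, 10.1 and 18.9 CPM in depleted libraries (log2 change -2.08 ± 0.21, edgeR adjusted p = 7.38e-06). The arms overlapped at day 4 (97.6, 113.6 and 86.8 against 77.6, 78.0 and 95.9 CPM), and the change of 0.24 ± 0.19 did not pass (adjusted p = 0.800). The effect differed between the days by -2.32 ± 0.28 (edgeR adjusted p = 0.000248). Muscle thus had a high level of Hpgds at day 4 in both arms and at day 7 in controls only.

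Day 4 skin had 12.7, 5.12, 11.5 and 6.02 CPM of Hpgds in depleted and 27.5, 32.4, 27.3 and 42.7 CPM in control libraries, without overlap (log2 change -1.86 ± 0.41, edgeR adjusted p = 0.0160). Without depleted replicate 4 or control replicate 4 this call was lost (adjusted p up to 0.0621). At day 7 a depleted library at 35.6 CPM lay among the controls (21.0 to 55.5 CPM) while the other 3 stood at 10.2 to 12.3 CPM, and the change of -1.23 ± 0.38 did not pass in edgeR (adjusted p = 0.0651). It passed in DESeq2 (adjusted p = 0.0201), with the replicate block (0.0286) and without a filter on low counts (0.000487), and in edgeR without depleted replicate 4 (0.000978) or control replicate 2 (0.0223). The effects in day 4 muscle and day 4 skin differed by 2.10 ± 0.46 (edgeR adjusted p = 0.0336, where 0.265% of all genes were called). That call was lost without any of 7 of the 14 libraries: muscle depleted replicate 2, muscle control replicates 1 to 3, skin depleted replicates 2 and 4 and skin control replicate 4 (adjusted p up to 0.122).

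In the heart Hpgds was not called with depletion in edgeR with its filter on low counts. Its level was 106.4 to 179.3 CPM in depleted and 92.0 to 131 CPM in control samples at day 4 (log2 change 0.40 ± 0.17, adjusted p = 0.157). At day 7 it was 210.8 to 262.8 against 280.5 to 302.8 CPM, without overlap (-0.34 ± 0.16, adjusted p = 0.287). Without that filter the day 4 rise was called (0.42, edgeR adjusted p = 0.0264), as was the difference between the days' effects (-0.77, adjusted p = 0.00175, against 0.107 with the filter). Whether the heart differed from the other tissues was not tested, since it is in another table. Gm17147 overlaps Hpgds on the other strand, and the strand setting of the counting is not given in the sources used here, so reads of the 2 cannot be told apart.

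Among bone, muscle and skin, Ptgs2 and Ptges stood highest in skin; the heart is in another table and was not compared. Ptgs2 (ENSMUSG00000032487, chromosome 1, 150100031 to 150108227, plus strand) encodes the inducible cyclooxygenase COX-2, and Ptges (ENSMUSG00000050737, chromosome 2, 30889471 to 30929863, minus strand) the inducible prostaglandin E synthase that works after it. In control cells of day 7, Ptgs2 was at 182.7 to 237 CPM in skin, 18.7 to 38.0 in bone and 14.5 to 21.6 in muscle. The skin libraries were above all of bone and muscle, with a log2 difference of -3.11 ± 0.27 for bone against skin (edgeR adjusted p = 1.32e-11, with 25.6% of all genes called) and with a muscle against skin difference of -3.61 ± 0.34 (adjusted p = 1.59e-09, with 11.9% called). Bone and muscle did not differ beyond their spread (0.50 ± 0.31, adjusted p = 0.331, with 13.6% called).

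Ptges followed the same order. It was at 15.8 to 32.6 CPM in control day 7 skin, 1.85 to 3.89 CPM in bone and 1.44 to 2.68 CPM in muscle, again with skin apart (bone against skin -3.34 ± 0.49, edgeR adjusted p = 1.65e-06; muscle against skin -3.65 ± 0.60, adjusted p = 4.71e-05). In day 4 cells the muscle against skin difference was -3.55 ± 0.34 for Ptgs2 (edgeR adjusted p = 1.04e-09) and -3.42 ± 0.69 for Ptges (adjusted p = 0.000555). In that comparison 12.3% of all genes were called. In muscle alone Ptges was too low to be tested, at 1 to 13 counts per library. It passed the filter of the joint fit through the other tissues, so its muscle against skin tests are description only. Across the 12 group means of bone, muscle and skin the log levels of the 2 genes had a Pearson r of 0.934. This is a description over groups that share tissue and normalization, and the muscle means of Ptges were only 0.553 to 2.07 CPM. The genes most like Ptgs2 by that measure were Clec4e (0.984), Nlrp3 (0.971) and Nt5e (0.961), and those most like Ptges were Tnfrsf9 (0.954), Lif (0.945) and Nlrp3 (0.945), among 11848 genes.

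Depletion lowered Ptgs2 in day 7 skin, where the depleted libraries held 75.4, 116.4, 120.4 and 59.9 CPM and the controls 228, 237, 207.5 and 182.7 CPM. Every depleted library was below every control (log2 change -1.19 ± 0.25, edgeR adjusted p = 0.00631). At day 4 depleted skin held 76.6, 191, 188 and 196 CPM against 168, 139, 154 and 115 CPM, so 3 of 4 depleted libraries were above all controls and 1 below them (0.16 ± 0.25, adjusted p = 0.814). The difference between the days, -1.35 ± 0.35, did not pass (adjusted p = 0.0814, where 0.848% of all genes were called). Of 16 early response genes such as Fos, Jun and Egr1, 11 fell and 0 rose in depleted day 7 skin, and 0 were called at day 4. Their sum in depleted day 7 skin was 4734 to 8176 CPM against 9062 to 11956 CPM in control, and its part in the Ptgs2 result was not tested. The same list had 14 of 16 lower in day 7 bone, 12 in day 10 bone, 6 in day 7 heart, 2 in day 4 muscle and 4 in day 7 muscle. Ptgs2 was not called in any of these. In day 4 heart, where Ptgs2 fell, 3 were lower.

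The heart had a lower Ptgs2 in depleted cells at day 4, at 76.7, 88.5 and 93.8 CPM against 153, 125 and 181 CPM. The arms did not overlap (log2 change -0.82 ± 0.21, edgeR adjusted p = 0.020), but the call was lost without any of F1, F2, F3, W1 or W4 (adjusted p up to 0.0972) and held without W3 only. Its controls are the 3 hearts that stand apart in ribosomal protein RNA, and the part of that was not tested. At day 7 the arms overlapped (78.9, 77.0 and 42.5 against 55.3, 57.2 and 41.9 CPM), and the effects of the 2 days differed by 1.20 ± 0.29 (edgeR adjusted p = 0.0329, with 4.09% of all genes called). That difference was also lost without any of 9 of the 12 heart libraries, and held without FDG3, WT3 or W3 (adjusted p up to 0.101).

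Ptgs2 was not called with depletion in bone or muscle. Its log2 changes there were -0.24 ± 0.28 and 0.42 ± 0.35 in bone at days 7 and 10 and 0.10 ± 0.24 and 0.37 ± 0.23 in muscle at days 4 and 7. The effects of day 7 muscle and day 7 skin differed by 1.57 ± 0.43 (edgeR adjusted p = 0.0344, with 2.78% of all genes called), a call lost without any of 8 of the 14 libraries: muscle depleted replicates 2 and 3, muscle control replicates 1 and 3, skin depleted replicates 1 and 4 and skin control replicates 1 and 2 (adjusted p up to 0.150).

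Ptges was called in 0 of the 6 depletion comparisons in which it was tested, all at an unadjusted p over 0.05 except day 7 heart. It was too low to be tested in muscle, with 1 to 13 counts per library. In day 7 heart it was at 2.99, 2.47 and 1.93 CPM in depleted against 0.694, 1.06 and 0.224 CPM in control libraries, apart but not past the threshold (1.87 ± 0.64, edgeR adjusted p = 0.116; without a filter on low counts 0.0484). Depleted day 7 skin ran from 3.37 to 38.6 CPM, around the controls. Gm13400 overlaps Ptges on the same strand, which makes its counts uncertain.

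Ptgs1 (ENSMUSG00000047250, chromosome 2, 36230426 to 36252272, plus strand), the constitutive cyclooxygenase COX-1, rose with depletion in 1 of 8 comparisons, day 7 muscle. The depleted libraries held 54.6, 71.7 and 71.6 CPM and the controls 37.2, 29.0 and 33.1 CPM, with no overlap (log2 change 0.99 ± 0.17, edgeR adjusted p = 0.000877). At day 4 the order was the other way, at 40.0, 31.5 and 35.5 against 48.6, 55.8 and 45.3 CPM, a change of -0.48 ± 0.17 that did not pass (adjusted p = 0.391). The 2 days' effects differed by 1.47 ± 0.23 (edgeR adjusted p = 0.00284).

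Over the other 6 comparisons the log2 changes of Ptgs1 ran from -0.18 ± 0.24 in day 4 skin to 0.66 ± 0.32 in day 10 bone. Ptgs1 is also a platelet gene. Platelet markers in day 7 muscle moved both ways: Itga2b, Gp1bb and Itgb3 rose and Pf4 fell among 5 tested, and the sum over the list was 252.3 to 507.6 CPM in depleted and 708 to 1096 CPM in control samples. Gm43621 overlaps Ptgs1 on the other strand.

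**Figure D2:**
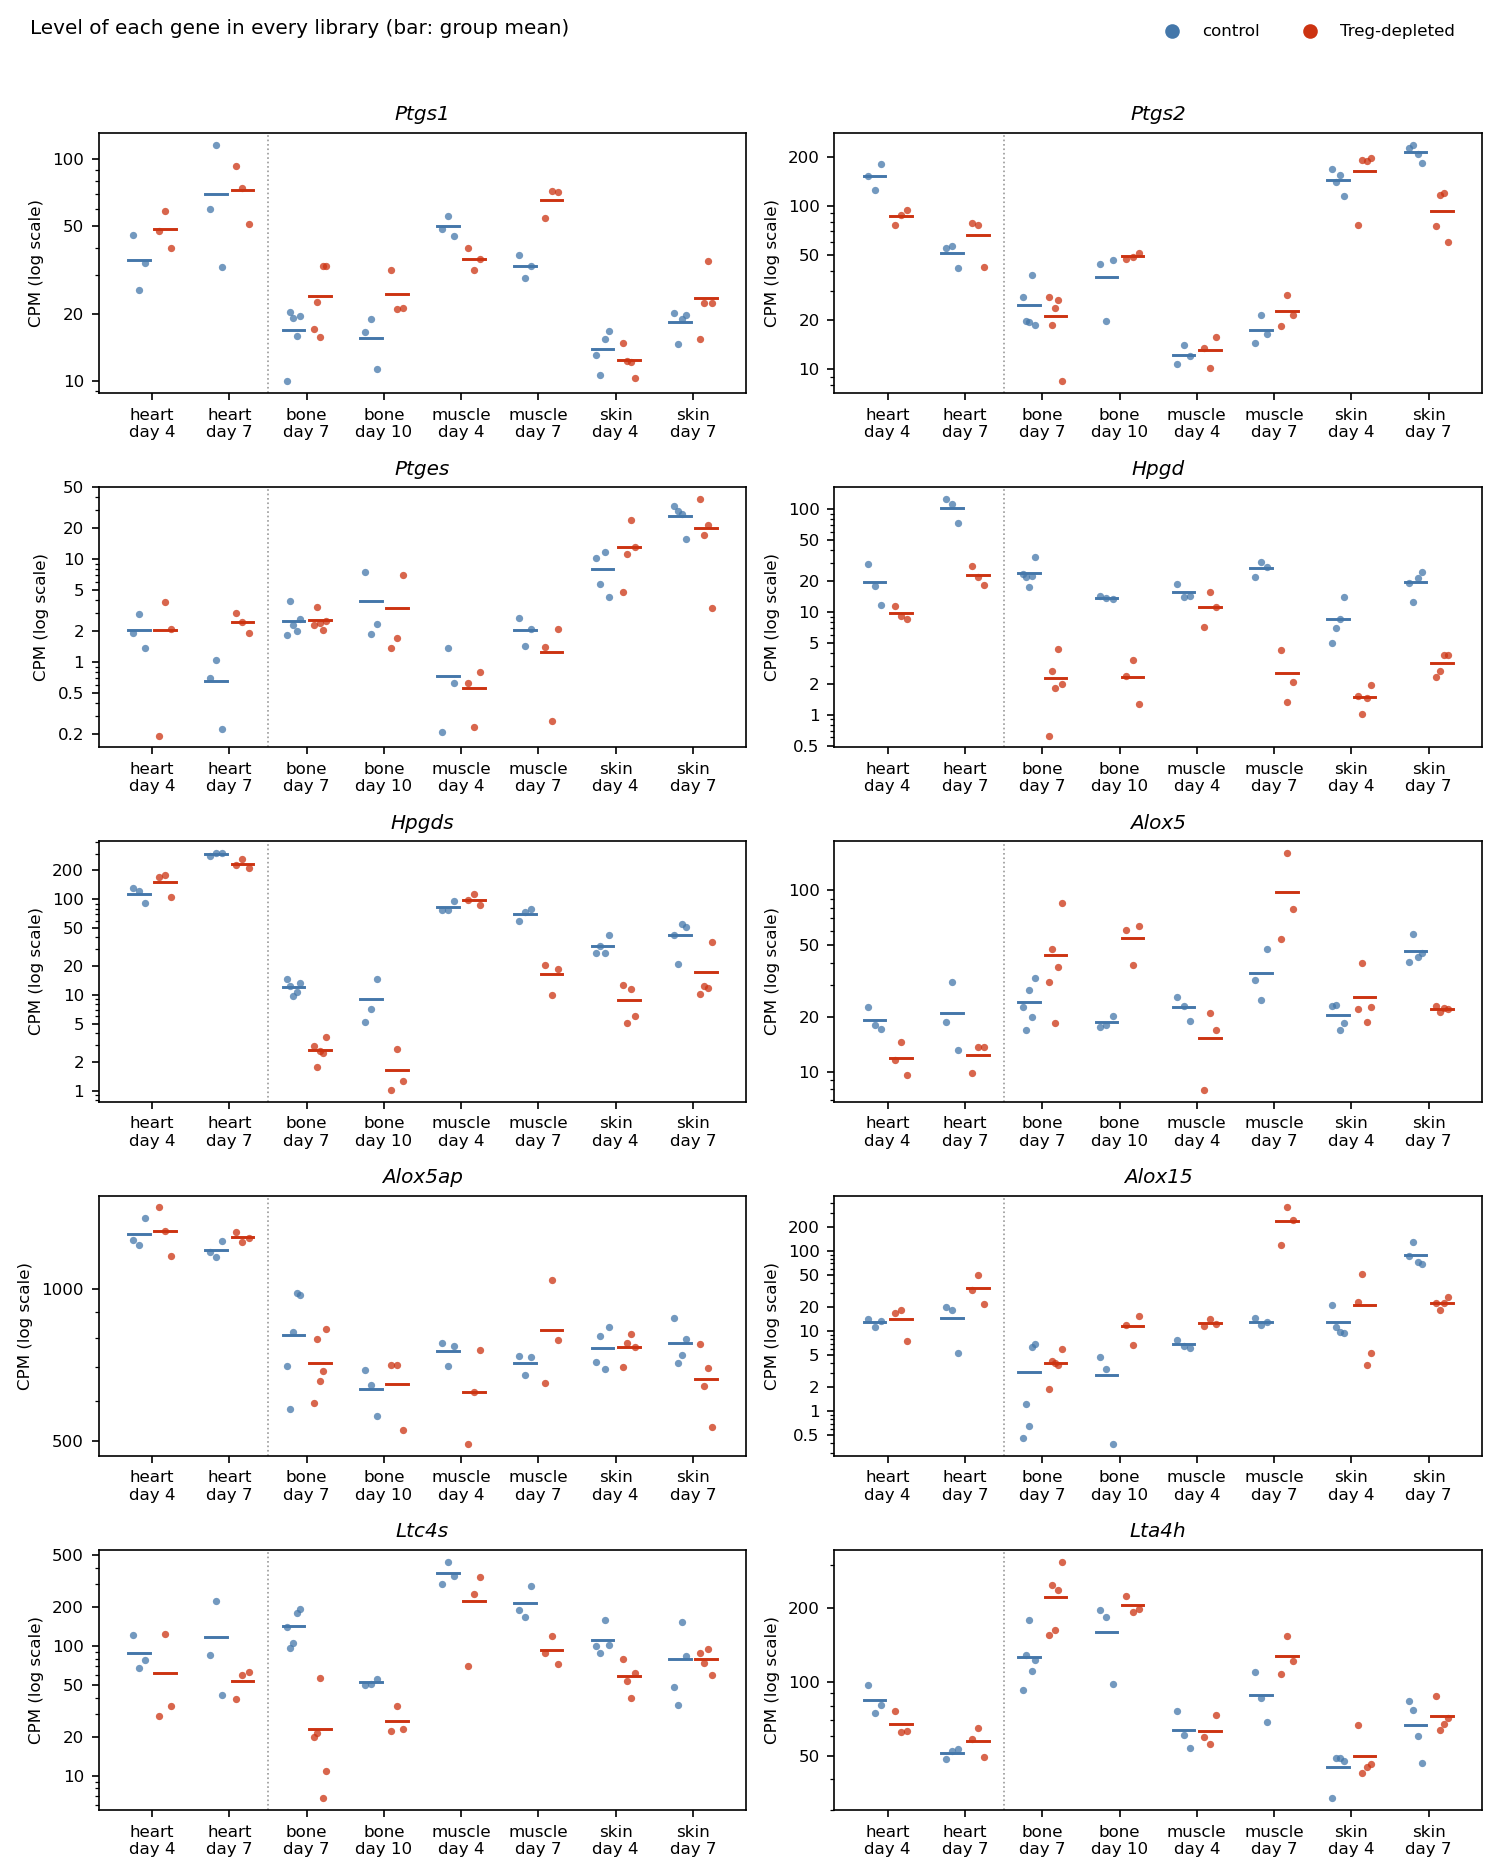
CPM on a log axis (y) of the 10 genes in each of the 56 libraries, by tissue and day (x), with control libraries in blue, depleted libraries in red and bars at group means; the dotted line parts the heart, which is in another table. Hpgd falls from 26.8 to 2.55 CPM on average in day 7 muscle, Alox15 rises from 13.1 to 238 CPM there, and Ptgs2 stands at 93.0 to 214 CPM on average in the 4 skin groups.

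Alox15 (ENSMUSG00000018924, chromosome 11, 70344152 to 70352031, minus strand), the 12/15-lipoxygenase of mouse resident macrophages and eosinophils, had the largest log2 change of the 10 genes in the 8 depletion comparisons. In day 7 muscle it was at 119.9, 351 and 244 CPM in depleted and 14.7, 11.9 and 12.8 CPM in control samples. The lowest depleted library was thus far above the highest control (log2 change 4.17 ± 0.30, edgeR adjusted p = 4.07e-07), and with the Rn18s-rs5 covariate it was 3.66 ± 0.40 (adjusted p = 0.000116). At day 4 the muscle libraries were at 11.7, 14.1 and 12.3 against 7.68, 6.61 and 6.15 CPM, apart but not past the threshold (0.90 ± 0.34, adjusted p = 0.465), and the days' effects differed by 3.27 ± 0.46 (edgeR adjusted p = 0.00124).

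In day 7 skin the order was reversed. Depleted libraries held 22.2, 18.3, 22.8 and 26.7 CPM of Alox15 and controls 87.5, 129.4, 73.1 and 69.8 CPM, with no overlap. The change of -1.98 ± 0.58 nevertheless missed the threshold in edgeR (adjusted p = 0.0639) and passed it in DESeq2 (adjusted p = 0.0263). Muscle and skin differed in their day 7 effects by 6.17 ± 0.76 (edgeR adjusted p = 8.9e-07), and bone and muscle by -3.64 ± 0.93 (adjusted p = 0.00992, with 8.28% of all genes called), the latter lost without bone control replicate 4 (adjusted p = 0.0590). Bone and skin differed by 2.53 ± 0.82 (edgeR adjusted p = 0.0456, with 9.37% called), which was lost without any of 13 of the 18 libraries (all but bone depleted replicate 1, bone control replicates 4 and 5, and skin control replicates 3 and 4; adjusted p up to 0.103).

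Bone had little Alox15: 1.88 to 5.91 CPM in depleted and 0.463 to 6.98 CPM in control samples at day 7, and 12, 6.78 and 15.6 CPM against 4.69, 3.41 and 0.390 CPM at day 10 (log2 change 1.96 ± 0.75, edgeR adjusted p = 0.0780). In the heart the levels were 32.4, 50.4 and 21.9 CPM in depleted and 20.3, 18.5 and 5.26 CPM in control samples at day 7 (1.27 ± 0.48, adjusted p = 0.194). Both pairs of groups were apart, and neither passed.

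Eosinophil genes moved beside Alox15. Of the 8 eosinophil markers, all 5 tested in day 7 muscle rose (Siglecf, Prg2, Ear1, Ear6 and Ccr3), and their list summed to 386 to 659 CPM in depleted and 30.2 to 52.7 CPM in control samples. Siglecf, a sialic acid-binding receptor of eosinophils, averaged 73.8 ± 31.5 CPM in depleted and 5.48 ± 1.52 CPM in control day 7 muscle (SD, n = 3 each). In day 7 skin 5 of 6 tested fell (Siglecf, Prg2, Ear6, Ccr3 and Il5ra) and Ear1 rose, with Siglecf at 3.45 ± 1.06 CPM in depleted and 28.0 ± 11.7 CPM in control samples (n = 4 each). Of the defining eosinophil granule gene Epx, the control day 7 muscle libraries had 0 counts and the depleted ones 1.03 ± 0.66 CPM. Across the 12 group means of bone, muscle and skin the genes most like Alox15 were Siglecf (Pearson r 0.945), Aspa (0.944) and Chchd3 (0.931). In day 7 bone the eosinophil list summed to 55.1 to 463.9 CPM, with Siglecf at 1.00 to 3.97 CPM and no marker called. No marker was called in day 10 bone either. In day 7 heart 3 of 4 tested rose (Siglecf, Prg2 and Ear6) and 0 fell, while Epx had 0 counts in both arms. The list summed there to 29.4 to 77.0 CPM in depleted and 7.28 to 19.2 CPM in control samples. The part of eosinophil RNA in the Alox15 result was not tested.

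**Figure D3:**
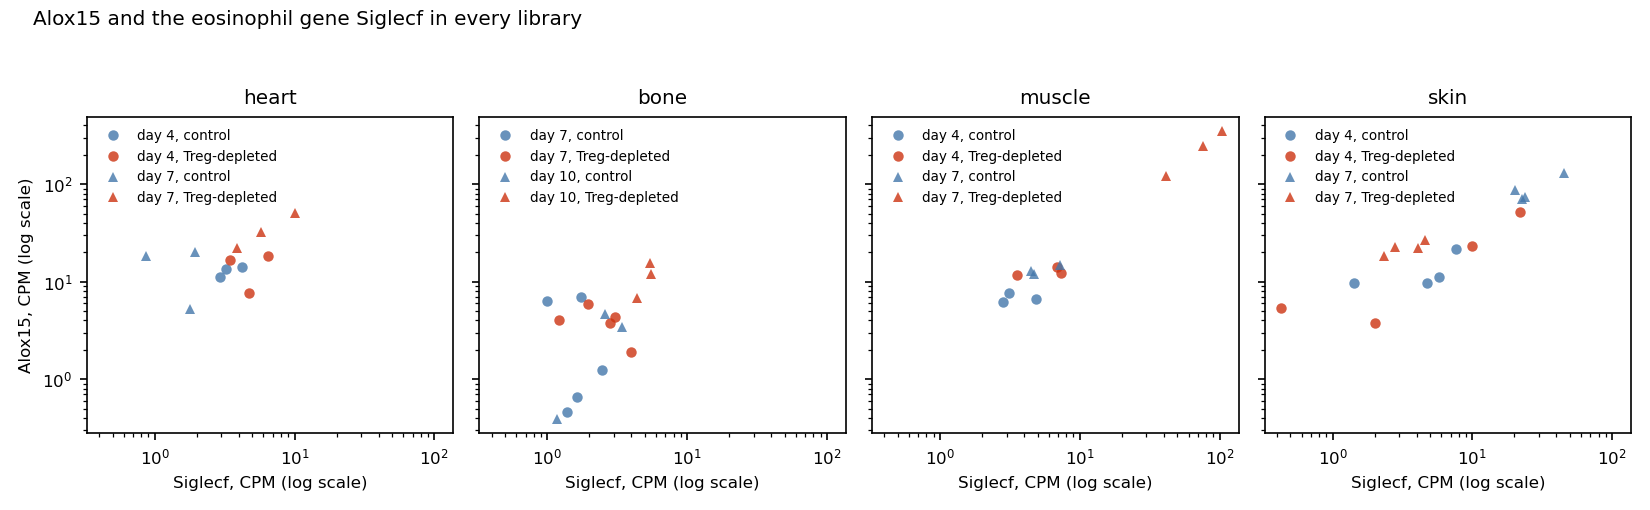
Alox15 against Siglecf, both in CPM on log axes, in each library of heart, bone, muscle and skin; blue is control, red is depleted, circles are the earlier and triangles the later day. The 3 depleted day 7 muscle libraries lie apart at the upper right (Siglecf 41.1 to 103.9 CPM), and the 4 control day 7 skin libraries lie above the depleted ones (Siglecf 20.2 to 45.4 against 2.34 to 4.57 CPM).

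Alox5 (ENSMUSG00000025701, chromosome 6, 116410077 to 116461178, minus strand), the 5-lipoxygenase that opens the leukotriene branch, moved in opposite directions in different tissues. In day 7 skin it fell, at 23.1, 21.4, 22.5 and 22.1 CPM in depleted and 40.4, 57.4, 43.2 and 45.3 CPM in control samples (log2 change -1.05 ± 0.20, edgeR adjusted p = 0.00172). The depleted libraries were close together and below all controls. Of 6 eosinophil markers tested there 5 fell and 1 rose, and of 13 neutrophil markers 2 rose and 2 fell. The neutrophil list summed to 346.8 to 1919 CPM in depleted (median 587) and 1125 to 1942 CPM in control day 7 skin (median 1253). The part of these markers was not tested. In day 4 skin the arms overlapped (18.8 to 39.9 against 16.9 to 23.4 CPM), and the days' effects differed by -1.38 ± 0.29 (edgeR adjusted p = 0.0184), a call lost without day 4 control replicate 3 or day 7 control replicate 2 (adjusted p up to 0.0586).

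Alox5 rose in day 10 bone, at 60.3, 38.7 and 63.8 CPM in depleted and 17.7, 18.2 and 20.3 CPM in control samples (log2 change 1.55 ± 0.39, edgeR adjusted p = 0.0118), without overlap. In day 7 bone it was at 31.4, 47.4, 18.6, 37.9 and 85.3 against 22.7, 17.0, 28.3, 20.0 and 32.7 CPM, which overlap (0.86 ± 0.29, edgeR adjusted p = 0.0415). That call was lost without any of 7 of the 10 libraries (depleted replicates 2, 4 and 5 and control replicates 1 to 4; adjusted p up to 0.138). With the Rn18s-rs5 covariate both bone calls were lost (adjusted p = 0.207 at day 7 and 0.237 at day 10), at estimates of 0.88 and 1.59. Neutrophil markers, another source of Alox5 RNA, rose beside it in depleted bone (7 of 16 at day 7 and 8 of 16 at day 10, with 0 lower), and their part was not tested.

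In day 7 muscle Alox5 was at 53.9, 160.3 and 78.9 CPM in depleted and 32.0, 24.9 and 47.7 CPM in control samples, without overlap (log2 change 1.49 ± 0.38, edgeR adjusted p = 0.0270). The call was lost without depleted replicate 2 or control replicates 1 or 2 (adjusted p up to 0.110). With the Rn18s-rs5 covariate the estimate was 0.54 ± 0.49 and the call was lost (edgeR adjusted p = 0.627). Neutrophil markers rose there too (7 of 12 tested, summing to 1122 to 2952 CPM against 200.8 to 248.6 CPM). All 5 tested eosinophil markers rose in day 7 muscle as well, while 0 of 6 were called in bone at either day. The part of these markers in the Alox5 result was not tested. The day 7 effects of muscle and skin differed by 2.56 ± 0.48 (edgeR adjusted p = 0.000597), and those of bone and skin by 1.94 ± 0.43 (adjusted p = 0.00250). In the heart the change was -0.74 ± 0.29 at day 4 and -0.78 ± 0.26 at day 7, neither called (adjusted p = 0.114 and 0.115). Without a filter on low counts both were called (edgeR adjusted p = 0.0348 and 0.00786).

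Alox5ap (ENSMUSG00000060063, chromosome 5, 149264767 to 149288153, plus strand), the protein that presents arachidonic acid to Alox5, was called in 0 of the 28 comparisons made here. Without muscle depleted replicate 3 of day 4 or replicate 1 of day 7 it was called higher at day 7 in depleted muscle (edgeR adjusted p = 0.0368 and 0.0276). Its counts were high, at 1433 to 12014 per library, and its standard errors were the smallest of the 10 genes in most comparisons. Depletion effects ran from -0.27 ± 0.17 in day 4 muscle to 0.21 ± 0.17 in day 7 muscle. Group means lay between 624 and 827 CPM in bone, muscle and skin and between 1194 and 1305 CPM in the heart table. Of its 31-base words 9.45% are shared with Gm19719 on the other strand.

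Lta4h (ENSMUSG00000015889, chromosome 10, 93453411 to 93484875, plus strand), the hydrolase that makes leukotriene B, rose with depletion in day 7 bone, at 156, 247, 163, 238 and 309.6 CPM in depleted against 92.8, 129, 178, 111 and 123 CPM in control libraries. A single control library lay within the depleted range (log2 change 0.80 ± 0.20, edgeR adjusted p = 0.00720). With the Rn18s-rs5 covariate the call was lost (0.67 ± 0.27, adjusted p = 0.134). The other 7 effects ran from -0.33 ± 0.14 in day 4 heart to 0.53 ± 0.19 in day 7 muscle, none called. In control cells of day 7, Lta4h was higher in bone than in skin by 0.92 ± 0.21 on the log2 scale (edgeR adjusted p = 0.000789), while bone against muscle (0.52 ± 0.22, adjusted p = 0.123) and muscle against skin (0.40 ± 0.23, adjusted p = 0.280) did not pass.

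Ltc4s (ENSMUSG00000020377, chromosome 11, 50236461 to 50238616, minus strand), which joins glutathione to leukotriene A, fell in day 7 bone, from 139.8, 97.3, 106, 181 and 194 CPM in controls to 20.1, 21.3, 56.7, 6.73 and 11.0 CPM in depleted libraries. All 5 depleted libraries were below the lowest control (log2 change -2.64 ± 0.45, edgeR adjusted p = 0.000674). The call held with the Rn18s-rs5 covariate (adjusted p = 0.00984). The fall of macrophage markers in day 7 bone given above stands beside it, and its part was not tested. In day 7 skin the arms overlapped (0.03 ± 0.36), and bone and skin differed in their effect by -2.63 ± 0.61 (edgeR adjusted p = 0.00424).

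The other Ltc4s effects were below 0 without passing, from -0.59 ± 0.73 in day 4 heart to -1.20 ± 0.48 in day 7 muscle. Arms were apart in day 10 bone, day 7 muscle and day 4 skin, but how often arms were apart over all genes was not counted. In those 3 comparisons depleted libraries held 22.3 to 34.6, 73.5 to 119.5 and 39.8 to 79.4 CPM, and control libraries 50.0 to 55.8, 167 to 291 and 88.2 to 158 CPM. Ltc4s and Hpgds had a Pearson r of 0.892 across the 12 group means, and the genes most like Ltc4s were Dbp (0.965), Hs6st1 (0.964) and 1110032A03Rik (0.959). Of the 31-base words of Ltc4s 19.52% are shared with Gm26542, which overlaps it on the other strand, so its counts are uncertain.

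Change with time after injury was compared within each arm. In control hearts (31.8% of all genes called) 2 of 10 genes rose and 2 fell from day 4 to day 7. This comparison rests on the 3 day 4 control hearts that stand apart in ribosomal protein RNA, and the part of that in it was not tested. Hpgd rose by 2.38 ± 0.30 on the log2 scale (edgeR adjusted p = 7.17e-05) and Hpgds by 1.36 ± 0.17 (adjusted p = 1.33e-05), while Ptgs2 fell by 1.57 (SE 0.21, adjusted p = 6.09e-05) and Lta4h fell by 0.72 (SE 0.14, adjusted p = 0.000553). In depleted hearts (27.3% called) Hpgd rose by 1.23 ± 0.33 (adjusted p = 0.0150) and Hpgds by 0.63 ± 0.17 (adjusted p = 0.0104), and 0 fell. The Hpgd call in depleted hearts was lost without FDG1, F2 or F3 (adjusted p up to 0.0761).

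In muscle more of the tested genes were called over time in the depleted arm than in controls, as were more of all genes. From day 4 to day 7, 5 of 9 tested genes rose and 2 fell in depleted muscle (19.4% of all genes called). Alox15 rose by 4.23 ± 0.30, Alox5 by 2.67 ± 0.41, Lta4h by 1.03 ± 0.19, Ptgs1 by 0.89 ± 0.17 and Ptgs2 by 0.80 ± 0.24, while the changes of Hpgds and Hpgd were -2.55 ± 0.21 and -2.04 ± 0.36. The Ptgs2 call was lost without day 4 depleted replicates 1 or 2 or day 7 depleted replicate 2 (edgeR adjusted p up to 0.110). In control muscle (7.24% of all genes) Ptgs1 alone was called, at -0.58 ± 0.17 (edgeR adjusted p = 0.0404), and that call was lost without any of the 6 libraries (adjusted p up to 0.165). At an unadjusted p under 0.05 in edgeR stood 5 of 9 genes in control and 9 of 9 in depleted muscle. Depletion changed the course over time by the tests of the difference given above for Ptgs1, Hpgd, Hpgds and Alox15, 2 upward and 2 downward. For Alox5, Lta4h and Ptgs2 the difference between the arms was not called in edgeR. The adjusted p for Alox5 was 0.0824 there and 0.00635 in DESeq2.

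In control skin (2.27% of all genes called) Alox15 rose by 2.79 ± 0.61 (edgeR adjusted p = 0.0313), Alox5 by 1.20 ± 0.20 (adjusted p = 0.00241) and Hpgd by 1.20 ± 0.29 (adjusted p = 0.0243) from day 4 to day 7. The Alox15 call was lost without day 4 replicates 2, 3 or 4 or day 7 replicates 1 or 2 (adjusted p up to 0.109), and the Hpgd call without day 4 replicates 1, 2 or 3 or day 7 replicates 1, 3 or 4 (adjusted p up to 0.0836). In depleted skin (2.62%) Ptgs1 alone was called, higher at day 7 by 0.97 ± 0.23 (edgeR adjusted p = 0.0207) and lost without day 4 replicates 2, 3 or 4 or day 7 replicate 3 (adjusted p up to 0.0894). In bone 0 of 10 genes were called between days 10 and 7 in controls (0.0393% of all genes, with 3 of 10 at an unadjusted p under 0.05 and 0 in DESeq2). In depleted bone (12.2%) Ptgs2 was called, higher at day 10 by 1.23 ± 0.31 (edgeR adjusted p = 0.0145) and lost without day 10 replicate 3 (adjusted p = 0.0677). The effects of depletion in bone differed between the days for 0 of 10 genes (0.0% of all genes, 1 of 10 at an unadjusted p under 0.05, 0 in DESeq2).

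Control tissues also differed for members other than Ptgs2 and Ptges. At day 7 Hpgds was lower in bone than in muscle by a log2 difference of -2.53 ± 0.31 (edgeR adjusted p = 7.26e-08) and than in skin by -1.78 ± 0.30 (adjusted p = 1.14e-05), with means of 12.2 CPM in bone, 71.0 in muscle and 42.5 in skin. Alox15 followed another order, 3.13 ± 3.24 CPM in bone, 13.1 ± 1.4 in muscle and 89.9 ± 27.4 in skin (SD; bone against skin -5.05 ± 0.57, edgeR adjusted p = 2.48e-08; muscle against skin -2.77 ± 0.56, adjusted p = 0.000808). Its bone against muscle difference of -2.27 ± 0.66 (adjusted p = 0.0164) was lost without bone control replicates 1 or 2 or muscle control replicate 1 (adjusted p up to 0.0636). Among these 3 tissues Ptgs1 was highest in muscle (bone against muscle -0.96 ± 0.23, edgeR adjusted p = 0.00287; muscle against skin 0.85 ± 0.24, adjusted p = 0.0152), and the latter was lost without muscle control replicate 1 or skin control replicate 2 (adjusted p up to 0.0860). At day 4 Ptgs1 was higher in muscle than in skin by 1.83 ± 0.24 (edgeR adjusted p = 5.26e-07).

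Ltc4s in control cells was higher in muscle than in skin at both days, by 1.71 ± 0.46 at day 4 (edgeR adjusted p = 0.0125) and 1.44 ± 0.47 at day 7 (adjusted p = 0.0385). Without muscle control replicate 2 the day 4 call was lost (adjusted p = 0.0564), and the day 7 call was lost without any of 6 of the 7 libraries, all but skin control replicate 3 (adjusted p up to 0.186). Hpgds was higher in muscle than in skin at day 4 by 1.38 ± 0.31 (edgeR adjusted p = 0.00166). Alox5 was lower in bone than in skin at day 7 by a log2 difference of -0.97 ± 0.30 (adjusted p = 0.0156), lost without bone control replicate 2 or skin control replicate 2 (adjusted p up to 0.0659). Hpgd did not differ between control tissues past the threshold, with group means of 24.0, 26.8 and 19.6 CPM in day 7 bone, muscle and skin. At day 4 its means were 15.7 CPM in muscle and 8.57 CPM in skin (edgeR adjusted p = 0.0639). That difference passed with the replicate block (edgeR adjusted p = 0.0144) and without a filter on low counts (0.0431).

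Other genes of the pathway were taken from lists of enzymes that release arachidonate, other prostanoid enzymes, breakdown and transport genes, receptors, and the rest of the leukotriene branch, 59 genes in all. With depletion 4 of 34 tested rose and 4 fell in day 4 heart, 3 and 3 of 34 in day 7 heart, 5 and 14 of 36 in day 7 bone, and 5 and 6 of 36 in day 10 bone. In muscle 0 of 34 were called at day 4, while 7 rose and 6 fell at day 7. In skin 5 rose and 2 fell of 34 at day 4 and 6 rose and 2 fell at day 7. Beside these counts stand the shares of all genes called given above for each comparison, and the median log2 change of the tested pathway genes ran from -0.35 in day 7 bone to 0.15 in day 7 skin.

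Pla2g16, a phospholipase that frees fatty acids from membranes, rose in 6 of 8 comparisons, among them day 4 heart (53.8 ± 24.8 against 13.9 ± 3.5 CPM, log2 change 1.95 ± 0.33, edgeR adjusted p = 0.00288), day 4 skin (29.9 ± 4.46 against 7.40 ± 1.78 CPM, 2.03 ± 0.25) and day 7 skin (33.7 ± 9.45 against 6.02 ± 1.67 CPM, 2.47 ± 0.25). The carbonyl reductase Cbr2 fell in 6 comparisons, most in day 7 bone (17.3 ± 4.20 against 152.7 ± 49.8 CPM, -3.16 ± 0.35). Cbr2 is also on the list of resident macrophage markers. Fam213b, a prostamide and prostaglandin F synthase, fell in 4 comparisons, among them day 7 bone (15.2 ± 1.89 against 58.6 ± 6.54 CPM, -1.96 ± 0.15, edgeR adjusted p = 4.68e-08) and day 10 bone (13.0 ± 2.76 against 36.8 ± 4.63 CPM, -1.48 ± 0.20).

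On the leukotriene side Dpep2, a dipeptidase that trims leukotriene D, fell in 3 comparisons, with the largest estimate in day 7 bone (41.0 ± 10.6 against 158 ± 43.8 CPM, log2 change -1.97 ± 0.21). Cyp4f18, which oxidises leukotriene B, rose in day 7 muscle (737 ± 332 against 210.4 ± 24.8 CPM, 1.81 ± 0.24, edgeR adjusted p = 0.000139) and fell in day 7 skin (197.8 ± 30.7 against 358 ± 40.1 CPM, -0.84 ± 0.14, adjusted p = 0.000436). It also rose in day 7 heart (405 ± 83.8 against 224 ± 21.4 CPM, 0.86 ± 0.15) and day 4 heart (0.66 ± 0.15), where Alox5 was not called, and was not called in bone. The leukotriene B receptor gene Ltb4r1 rose on both skin days, for example day 4 (73.8 ± 7.58 against 28.6 ± 2.51 CPM, 1.36 ± 0.16). Mgst1 rose in 7 of 8 comparisons, the most of the pathway genes, among them day 7 skin (221 ± 25.7 against 117 ± 19.3 CPM, 0.94 ± 0.13). Alox12e was called higher in day 7 muscle (5.86 ± 3.47 against 0.343 ± 0.314 CPM, 3.84 ± 0.69). It was tested in 2 of 8 comparisons only and may have passed the filter through its depleted level, so this change is description only. Dpep1 rose there too (6.78 ± 3.18 against 1.09 ± 0.442 CPM, 2.58 ± 0.59), and Mgst2 rose in day 10 bone (1.37 ± 0.31). Fpr2, a receptor for lipoxin and formyl peptides, rose in 5 comparisons, among them day 10 bone (32.8 ± 7.82 against 8.49 ± 3.04 CPM, 1.96 ± 0.32), day 7 muscle (16.6 ± 5.35 against 5.92 ± 3.66 CPM, 1.54 ± 0.39) and day 4 skin (48.0 ± 6.90 against 20.1 ± 3.43 CPM, 1.26 ± 0.21).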

How the data were processed

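Monocytes and macrophages sorted from 4 injured tissues were profiled by 3′ RNA-seq with molecular identifiers. Per the submitters' processing notes, the tools named for heart are STAR, featureCounts, limma and Salmon, with the build GRCm38, and those for bone, muscle and skin are featureCounts, STAR and limma, with GRCm38 and GRCm39. The authors deposited whole counts per gene for the heart. For the other tissues the deposited values are estimated counts, since 19.4% of non-zero values lay more than 0.01 from a whole number, and they were rounded. The strand setting of the counting is not given in the sources used here.

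Each tissue was fitted over all its groups with edgeR 4.0.16 (quasi-likelihood test, TMM factors, genes kept by filterByExpr), and bone, muscle and skin also together for tissue comparisons. P-values were adjusted by Benjamini and Hochberg over all genes tested, and an adjusted p under 0.05 is a call. How many of all genes had arms that did not overlap was not counted, so a lack of overlap is description only. Heart levels were normalised apart and were not set against the other tissues. Heart columns carry numbers that are not those of the labels and were placed by group name, those naming no day as day 7, and are called here by the column names (F and FDG for depleted, W and WT for control). Whether each library is its own animal is not stated in the labels. The p-values then cover only variation among libraries, which may be technical.

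All 10 genes are named, with up to 4 called pathway genes per depletion comparison. These were taken by largest change among those with at least 5 CPM in an arm and no overlap. The 3 genes most alike by Pearson r of log2 CPM (prior count 2) are named for Ptgs2, Ptges, Hpgds, Alox15 and Ltc4s. The members and lists were chosen with earlier results of these data known. Alternatives were RLE factors, no filter, DESeq2 1.42.0, the replicate number as a block, Rn18s-rs5 as a covariate in bone (in muscle and skin added after seeing the data), and leaving out each library. Counts were also simulated around each gene's mean and spread in these samples, with changes set only in genes with a mean of at least 5 CPM. Of those with a 2-fold change 44.0% were found in day 10 bone and 86.0% in day 7 heart. Of those with a 4-fold change 89.0% and 100.0% were found. Genes at lower levels, such as Ptges in heart and bone, are not covered by these shares. Between libraries of a group the chi-square per degree of freedom was 5.41 to 28.7, so no library was a copy of another. Same-numbered libraries of the arms did not deviate together (22 pairs, r from -0.121 to 0.141, 2 over 0.1), so the numbers were not taken as pairs. Promoter sequences are from RefSeq.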

Additional observations from a re-analysis of the deposited data

Results flagged for a closer look

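In groups of 4 to 10 libraries a level was picked out where its gap to the nearest other library took up most of the group's range (Dixon's test), and 5 of 60 tested groups had such a library, where chance gives about 1 in 20, or 3.0. Of the 60, 40 were in skin and 20 in day 7 bone, since heart, muscle and day 10 bone have 3 libraries per group and were not tested. All 5 were in skin. Ptgs2 was lowest in depleted replicate 1 of day 4, at 76.6 CPM against 188 CPM in the next library. Hpgds was highest in depleted replicate 4 of day 7, at 35.6 CPM against 12.3 CPM. Alox15 was highest in control replicate 1 of day 4, at 21.5 CPM against 11.2 CPM. Lta4h was lowest in that same control library, at 33.5 CPM against 47.6 CPM, and highest in depleted replicate 1 of day 4, at 66.4 CPM against 46.2 CPM.

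The effect of depletion differed between days or tissues in 14 of 79 tests of the difference (edgeR adjusted p under 0.05). Over all genes such a difference was called for 4.09% between heart days, 0.0% between bone days, 2.41% between muscle days and 0.848% between skin days. Between tissues the shares were 8.28% for bone against muscle, 9.37% for bone against skin, 2.78% for muscle against skin at day 7 and 0.265% at day 4. Between days the differences in log2 effect were 1.20 for Ptgs2 in heart, 1.47 for Ptgs1, -2.82 for Hpgd, -2.32 for Hpgds and 3.27 for Alox15 in muscle, and -1.38 for Alox5 in skin. Between tissues at day 7 they were -3.64 for Alox15 in bone against muscle. In bone against skin they were 1.94 for Alox5, 2.53 for Alox15 and -2.63 for Ltc4s. In muscle against skin they were 1.57 for Ptgs2, 2.56 for Alox5 and 6.17 for Alox15, and at day 4 the difference was 2.10 for Hpgds.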

How the results depend on the processing

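Of 72 calls on the 10 genes in all comparisons, 50 held without each library in turn, 64 held under every other alternative, and 0 reversed direction. RLE factors moved no count of called genes past 1.5 times. Without a filter on low counts the number called became 4 in place of 1 in day 4 heart, 3 in place of 1 in day 7 heart and in the heart difference between days, 2 in place of 1 for day in depleted bone and in control muscle, 1 in place of 0 in day 4 muscle, 3 in place of 1 for day in depleted skin, 2 in place of 1 for the skin difference between days, and 2, 5 and 2 in place of 1, 3 and 1 for the effect of depletion in bone against muscle, bone against skin and day 4 muscle against skin. DESeq2 gave 2 in place of 1 in day 4 heart, 5 in place of 3 in day 7 skin and 2 in place of 1 for the skin difference between days. DESeq2 moved the median of all genes by 0.13 (log2) for day in depleted bone. The Rn18s-rs5 covariate left 3 of 5 in day 7 bone and 0 of 3 in day 10 bone, and, as an alternative chosen after seeing the data, 4 of 5 in day 7 muscle, 2 of 2 in day 4 skin and 3 of 3 in day 7 skin. The cause was not tested. The replicate block gave 2 in place of 1 for day in depleted bone and 0 in place of 1 for day in control muscle, and moved no other count past 1.5 times. No block was fitted for the heart, whose column numbers (1, 2 and 3 in depleted, 1, 3 and 4 in control) are not those of the labels (1 to 3 in each group).

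Leaving out each library gave these lowest and highest counts of called genes. With depletion they were 0 to 1 in day 4 heart, 1 to 2 in day 7 heart, 4 to 5 in day 7 bone, 3 in day 10 bone, 0 in day 4 muscle, 4 to 5 in day 7 muscle, 1 to 2 in day 4 skin and 3 to 4 in day 7 skin. For day, control and depleted heart gave 4 to 5 and 1 to 2, bone 0 and 0 to 1, muscle 0 and 6 to 8, and skin 1 to 3 and 0 to 3. The difference between days gave 0 to 1 both for heart and for bone, 4 to 5 for muscle and 0 to 2 for skin. Between control tissues they were 2 to 3 for bone against muscle, 5 to 7 for bone against skin, and 3 to 5 and 4 to 6 for muscle against skin at days 7 and 4. For the effect of depletion between those tissues they were 0 to 2, 2 to 4, 2 to 3 and 0 to 1. Low counts limit Hpgd and Hpgds in depleted cells, at 3 counts in the lowest libraries.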
